A study of Mus musculus with 24 samples.

Results

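The genes described are 9 transcription factors of forebrain excitatory neurons, Neurod2, Neurod6, Mef2a, Mef2c, Mef2d, Bcl11a, Bcl11b, Tbr1 and Emx1. They were found by matching the Ensembl identifiers of the deposited count table to gene symbols, which gave 9 of the 55471 genes listed. The table holds RNA-seq counts from the hippocampi of 12 female C57BL/6 mice, 3 to 6 months old, with 3 mice in each of 4 groups. CBP-ifKOs carry floxed Crebbp alleles and a tamoxifen-inducible Cre recombinase driven by Camk2a, and their controls are littermates without the Cre that were also given tamoxifen. Both genotypes were kept either in standard cages (SC) or in an enriched environment (EE) of large boxes with wheels, tubing and toys. The Cre acts in forebrain excitatory neurons, so other cells of the tissue keep an intact Crebbp, and recombined cells can still make a truncated CBP. In RNA from whole tissue, fewer cells of a type and less RNA per cell cannot be told apart.

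These factors act together in making and keeping a glutamatergic forebrain neuron. NeuroD proteins are basic helix-loop-helix factors that bind E-boxes as dimers with E proteins. MEF2 proteins are MADS-box factors that bind A/T-rich sites, answer to calcium and neuronal activity, and are held in check by class II histone deacetylases. Bcl11a and Bcl11b (also called Ctip1 and Ctip2) are zinc finger factors needed for projection neuron fate and for dentate granule cells, Tbr1 is a T-box factor of early-born cortical neurons, and Emx1 is a homeobox factor of the dorsal telencephalon. CBP, encoded by Crebbp, is a lysine acetyltransferase recruited by CREB and by many other factors, MEF2 proteins among them. The comparison of genotypes asks whether the RNA of these identity factors holds after CBP is lost from adult neurons.

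CBP-ifKOs kept RNA of all 9 factors, and 4 of the 9 were lower than in control mice when both housings were combined (10.3% of all genes tested were lower and 16.9% were called, and 20.0% of the genes at the level of Tbr1 or above were lower). Mef2d fell by 23.5%, Bcl11b fell by 15.9%, Neurod6 fell by 11.4% and Bcl11a fell by 10.1%. Only Mef2d passed the test in each housing by itself. Neurod2, Mef2a, Mef2c, Tbr1 and Emx1 did not pass it, and no factor passed it for housing in either genotype.

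Libraries of the 6 control mice held 26874015 to 27971488 counts, and those of the 6 CBP-ifKOs held 28582210 to 37448388. Every count of the CBP-ifKOs was an even number, while 54.0% to 55.1% of the nonzero counts in a control library were odd. Whether reads were counted double in CBP-ifKOs is not given in the sources used here, and with their counts halved these libraries hold 14291105 to 18724194, fewer than the controls. The values below use the counts as deposited, and halving the CBP-ifKO counts left every call of the 9 factors as it was in each comparison. Crebbp, the deleted gene, lay at 69.6 to 81.9 CPM in the control mice and at 44.5 to 51.6 CPM in the CBP-ifKOs, with no overlap. Its paralog Ep300 did not pass the test (log2 fold change 0.12 ± 0.09 SE with housings averaged, adjusted p = 0.408, edgeR quasi-likelihood test). Slc17a7, the vesicular glutamate transporter that defines these neurons, was at 1141 CPM or more in every library. CPM is the usual depth-scaled count, that is the count divided by the TMM-normalized library size of the 12-mouse fit.

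All 9 are protein-coding genes of the GRCm38 genome, and the lengths in the count table equal the summed exons of the GENCODE M21 annotation for each of them. Neurod2 lies on chromosome 11 from 98325415 to 98329648 and Bcl11a on the same chromosome from 24078056 to 24174123. Neurod6 lies on chromosome 6 from 55677822 to 55681263 and Emx1 on that chromosome from 85187438 to 85204462. Mef2a lies on chromosome 7 from 67231163 to 67372858, Mef2c on chromosome 13 from 83504034 to 83667080 and Mef2d on chromosome 3 from 88142372 to 88172086. Bcl11b lies on chromosome 12 from 107910403 to 108003602, and Tbr1 on chromosome 2 from 61802930 to 61814114. Antisense or opposite-strand exons overlap 8.87% of the exonic bases of Mef2d, 2.40% of those of Bcl11a and 2.06% of those of Mef2a. Whether the counting used strand is not given in the sources used here. The antisense gene at Mef2d, 1700113A16Rik, had only 12 to 28 counts a library, and the one at Bcl11a, 4930538E20Rik, had 8 to 24. The overlapping neighbor of Mef2a, Lysmd4, had 922 to 1596. No 50-base stretch of a Mef2 or Bcl11 transcript occurs in another member of its family. Repeats shared with other genes make up 1.91% of such stretches in Mef2a and at most 0.109% in the other 8 genes.

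The promoters of Mef2d, Neurod6 and Bcl11a, 3 of the 4 factors that fell, and of Neurod2, which did not pass the test, are shown so that their sequences can be compared. That of Bcl11b, the other factor that fell, is not shown because 188 bases of its window are annotated as exon. Each is the stretch before the transcription start in the RefSeq promoter table (GRCm38.p6), read 5′ to 3′ on the gene's strand and ended before any annotated exon of the gene. Capitals mark E-boxes (CANNTG) and the core of the CREB site (TGACG), searched on both strands.
Mef2d, chr3:88142122-88142371, plus strand: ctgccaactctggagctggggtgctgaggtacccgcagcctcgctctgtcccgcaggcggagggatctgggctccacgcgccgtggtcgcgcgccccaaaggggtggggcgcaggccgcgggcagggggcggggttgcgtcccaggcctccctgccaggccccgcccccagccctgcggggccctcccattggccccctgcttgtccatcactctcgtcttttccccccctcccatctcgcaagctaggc
Neurod6, chr6:55681264-55681513, minus strand: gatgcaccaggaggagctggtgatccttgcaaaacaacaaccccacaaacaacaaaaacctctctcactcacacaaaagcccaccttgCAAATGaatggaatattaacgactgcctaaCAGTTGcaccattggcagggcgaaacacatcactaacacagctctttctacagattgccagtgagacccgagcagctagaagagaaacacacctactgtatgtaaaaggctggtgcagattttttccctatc
Bcl11a, chr11:24080445-24080669, plus strand: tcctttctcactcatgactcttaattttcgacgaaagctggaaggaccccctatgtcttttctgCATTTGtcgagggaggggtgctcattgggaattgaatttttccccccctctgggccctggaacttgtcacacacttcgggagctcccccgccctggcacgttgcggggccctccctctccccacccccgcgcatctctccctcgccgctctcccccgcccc
Neurod2, chr11:98329649-98329895, minus strand: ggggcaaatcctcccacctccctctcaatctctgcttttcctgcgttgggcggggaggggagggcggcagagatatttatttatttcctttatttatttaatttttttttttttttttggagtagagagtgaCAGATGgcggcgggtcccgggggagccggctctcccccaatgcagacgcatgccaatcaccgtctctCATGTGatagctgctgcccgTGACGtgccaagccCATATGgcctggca

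Over the 250 bases before a start, the CREB site core was found in 1 of 11 windows of the 9 genes, that of Neurod2, and in 17.8% of 32841 promoters in the table. An E-box was found in 7 of the 11 windows, and in 66.2% of all promoters. The MEF2 box consensus was found in 0 of the 11 windows and in 2.92% of all promoters. A MEF2 core (TAAAAATA) was found in 1 of the 11 windows, that of Bcl11b, and in 2.45% of all promoters. The window of Bcl11b is exonic over 188 bases, and its other 62 bases do not hold this core. The windows of Tbr1 and Emx1, each counted with an E-box, are exonic over all 250 bases. The Mef2d promoter, with 73.2% G and C, held none of these motifs, whereas the Neurod6 promoter, with 46.0%, held a pair of E-boxes. A match or its absence describes these windows only and says nothing of which factors bind there.

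Compared per kilobase of gene length, Neurod6 had the highest level in all 4 groups. It stood at 112 ± 5.85 CPM per kilobase (SD, n = 3) in SC-housed controls. Mef2d followed there with 37.6 ± 1.57 and Neurod2 with 35.4 ± 5.89 CPM per kilobase, and these neighbors overlapped. In the other 3 groups Neurod2 stood above Mef2d without overlap. Bcl11b (19.2 ± 1.99 CPM per kilobase) and Mef2a (15.99 ± 0.463) came next in SC-housed controls, and they overlapped only in EE-housed CBP-ifKOs. Mef2c (9.96 ± 0.776) and Tbr1 (9.53 ± 0.826) overlapped in both SC groups. Bcl11a stood at 7.95 ± 0.389 CPM per kilobase, below Tbr1, which it overlapped in the other 3 groups. Emx1 was lowest in every group, at 3.50 ± 0.488 CPM per kilobase in SC-housed controls, and it had the fewest counts of the 9, with 172 to 306 a library.

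**Figure D1:**
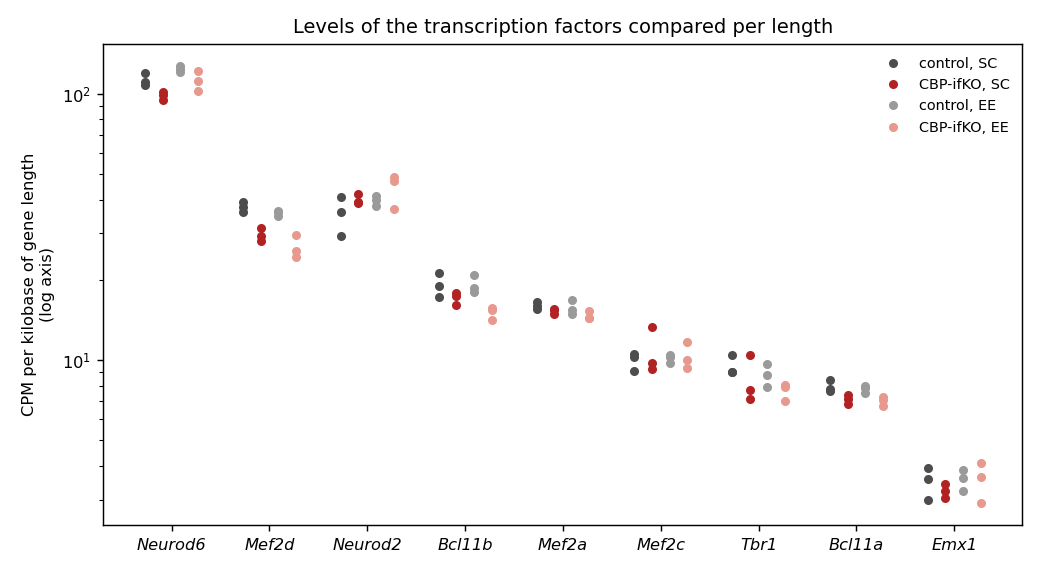
Level of each of the 9 factors in CPM per kilobase of gene length (log axis), with a point for each of the 12 mice, colored by group. Neurod6 lies above the other 8 genes in every mouse and Emx1 below them, and Mef2d and Neurod2 overlap in SC-housed controls only.

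Among the MEF2 factors, Mef2d RNA was lower in every CBP-ifKO than in every control mouse. Mef2d is the MEF2 family member of broadest expression, and in neurons it supports survival and activity-dependent transcription. In SC it measured 235, 224 and 216 CPM in the control mice and 188, 174 and 168 CPM in the CBP-ifKOs. In EE it measured 207, 216 and 217 CPM in the control mice and 146, 176 and 153 CPM in the CBP-ifKOs. The genotypes did not overlap in either housing. The log2 fold change was -0.35 ± 0.06 (SE) in SC (adjusted p = 0.00605) and -0.42 ± 0.07 in EE (adjusted p = 0.00872), and with housings averaged it was -0.39 ± 0.05 (adjusted p = 5.35e-05, edgeR quasi-likelihood test with Benjamini-Hochberg adjustment over all genes tested). Without replicate 3 of the EE-housed CBP-ifKOs the call in EE was lost (log2 fold change -0.39, adjusted p = 0.0679), while the averaged one passed without any mouse in turn.

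Mef2a and Mef2c, which share the DNA-binding domain of Mef2d, did not pass the test. Mef2a measured 234, 242 and 229 CPM in SC-housed controls and 219, 229 and 227 CPM in SC-housed CBP-ifKOs. EE-housed mice had 227, 246 and 220 CPM in controls and 212, 211 and 224 CPM in CBP-ifKOs. The genotypes overlapped in both housings. The averaged log2 fold change of Mef2a was -0.08 (95% interval -0.16 to -0.00043, adjusted p = 0.164). Mef2c, a factor of synapse number that is also expressed in microglia and interneurons, measured 161, 166 and 143 CPM in SC-housed controls and 209, 145 and 154 CPM in SC-housed CBP-ifKOs. In EE it measured 165, 161 and 153 CPM in controls and 157, 146 and 184 CPM in CBP-ifKOs. Replicate 1 of the SC-housed CBP-ifKOs stood far above the other 2 mice of its group. The averaged log2 fold change of Mef2c was 0.07 (95% interval -0.10 to 0.24, adjusted p = 0.613) and it was -0.02 without that mouse.

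Set against each other within a mouse, which needs no scaling between libraries, the differences between the MEF2 factors were as follows. The log2 ratio of Mef2a to Mef2d lay between -0.006 and 0.19 in the control mice and between 0.22 and 0.55 in the CBP-ifKOs. That of Mef2c to Mef2d lay between -0.60 and -0.33 in the control mice and between -0.27 and 0.26 in the CBP-ifKOs. The genotypes did not overlap in either ratio, whose means differed by 0.31 and by 0.45 on the log2 scale. They did overlap for Mef2a to Mef2c, at 0.46 to 0.68 in the control mice and 0.066 to 0.66 in the CBP-ifKOs. Bcl11a to Bcl11b overlapped as well, at -0.68 to -0.48 in the control mice and -0.69 to -0.38 in the CBP-ifKOs. Ratios within the Neurod, Mef2 and Bcl11 families were computed after the values of the single genes were seen, so they restate those values and are given as a description with no test.

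Of the NeuroD factors, Neurod6 was lower in CBP-ifKOs, whereas Neurod2 had a positive estimate that did not pass the test. Neurod6 (also called Nex) marks postmitotic pyramidal neurons, and Neurod2 takes part in their synaptic maturation. Neurod6 measured 256, 237 and 232 CPM in SC-housed controls and 203, 218 and 212 CPM in SC-housed CBP-ifKOs. Values in EE were 267, 259 and 273 CPM in controls and 219, 239 and 260 CPM in CBP-ifKOs. The genotypes were apart in SC and met at their edges in EE. Its log2 fold change was -0.19 ± 0.06 in SC (adjusted p = 0.0672) and -0.15 ± 0.07 in EE (adjusted p = 0.279), and only the averaged value of -0.17 ± 0.04 passed (adjusted p = 0.0129). The SC value passed with DESeq2 on the same 6 mice (adjusted p = 0.0234), without a filter on low counts (adjusted p = 0.0240) and without replicate 2 of the controls (adjusted p = 0.0284).

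Neurod2 measured 129, 91.7 and 113 CPM in SC-housed controls and 122, 132 and 123 CPM in SC-housed CBP-ifKOs. In EE it measured 130, 125 and 119 CPM in controls and 116, 148 and 153 CPM in CBP-ifKOs. The genotypes overlapped in both housings, and the lowest value of all was that of a control mouse. The averaged log2 fold change was 0.16 (95% interval 0.0025 to 0.33, adjusted p = 0.160). Without replicate 1 of the EE-housed CBP-ifKOs it was 0.22 and passed (adjusted p = 0.0403), and it also passed with all 12 mice and no filter on low counts (adjusted p = 0.0167). The log2 ratio of Neurod2 to Neurod6 within a mouse was -1.37 to -0.99 in the control mice and -0.92 to -0.69 in the CBP-ifKOs, a difference in means of 0.34 with no overlap.

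The paralogs Bcl11a and Bcl11b were both lower in CBP-ifKOs with housings averaged. Bcl11a measured 111, 103 and 101 CPM in SC-housed controls and 97.9, 90.3 and 94.1 CPM in SC-housed CBP-ifKOs. EE-housed mice had 99.4, 106 and 104 CPM in controls and 88.4, 95.8 and 93.5 CPM in CBP-ifKOs. The 6 CBP-ifKOs all lay below the 6 controls, by a narrow margin. Its log2 fold change was -0.15 ± 0.06 in SC (adjusted p = 0.147), -0.14 ± 0.06 in EE (adjusted p = 0.188) and -0.15 ± 0.04 averaged (adjusted p = 0.0144).

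Bcl11b, which is strong in dentate granule cells and CA1 and also present in some interneurons, measured 172, 154 and 140 CPM in SC-housed controls and 141, 145 and 131 CPM in SC-housed CBP-ifKOs. In EE it measured 151, 169 and 146 CPM in controls and 115, 126 and 128 CPM in CBP-ifKOs. The genotypes overlapped in SC and were apart in EE. Its log2 fold change was -0.16 ± 0.07 in SC (adjusted p = 0.241), -0.33 ± 0.07 in EE (adjusted p = 0.0223) and -0.25 ± 0.05 averaged (adjusted p = 0.00496). Leaving out any of the 3 EE-housed CBP-ifKOs ended the call in EE (adjusted p = 0.100, 0.0669 and 0.0780 without replicates 1, 2 and 3). The difference of the genotype effect between housings did not pass (interaction -0.18, 95% interval -0.41 to 0.055, adjusted p = 0.9998).

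Tbr1 and Emx1, the factors of the dorsal telencephalon, did not pass the test in any comparison as designed. Tbr1 measured 57.5, 49.7 and 49.7 CPM in SC-housed controls and 57.5, 42.4 and 39.2 CPM in SC-housed CBP-ifKOs. Values in EE were 52.9, 43.6 and 48.2 CPM in controls and 44.1, 38.7 and 43.5 CPM in CBP-ifKOs. The genotypes overlapped in SC through replicate 1 of the CBP-ifKOs, the mouse that was also high in Mef2c, and at their edges in EE. The averaged log2 fold change of Tbr1 was -0.19 (95% interval -0.36 to -0.0082, adjusted p = 0.147), and without that mouse it was -0.28 and passed (adjusted p = 0.00960). It also passed with the replicate number as a block (-0.19, adjusted p = 0.0309) and without a filter on low counts (-0.20, adjusted p = 0.00337). Emx1 measured 8.61, 6.50 and 7.80 CPM in SC-housed controls and 6.64, 7.48 and 7.04 CPM in SC-housed CBP-ifKOs. In EE it measured 7.90, 7.06 and 8.49 CPM in controls and 6.36, 7.95 and 8.99 CPM in CBP-ifKOs, with the genotypes mixed in both housings. Its averaged log2 fold change was -0.06 (95% interval -0.27 to 0.15, adjusted p = 0.717).

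**Figure D2:**
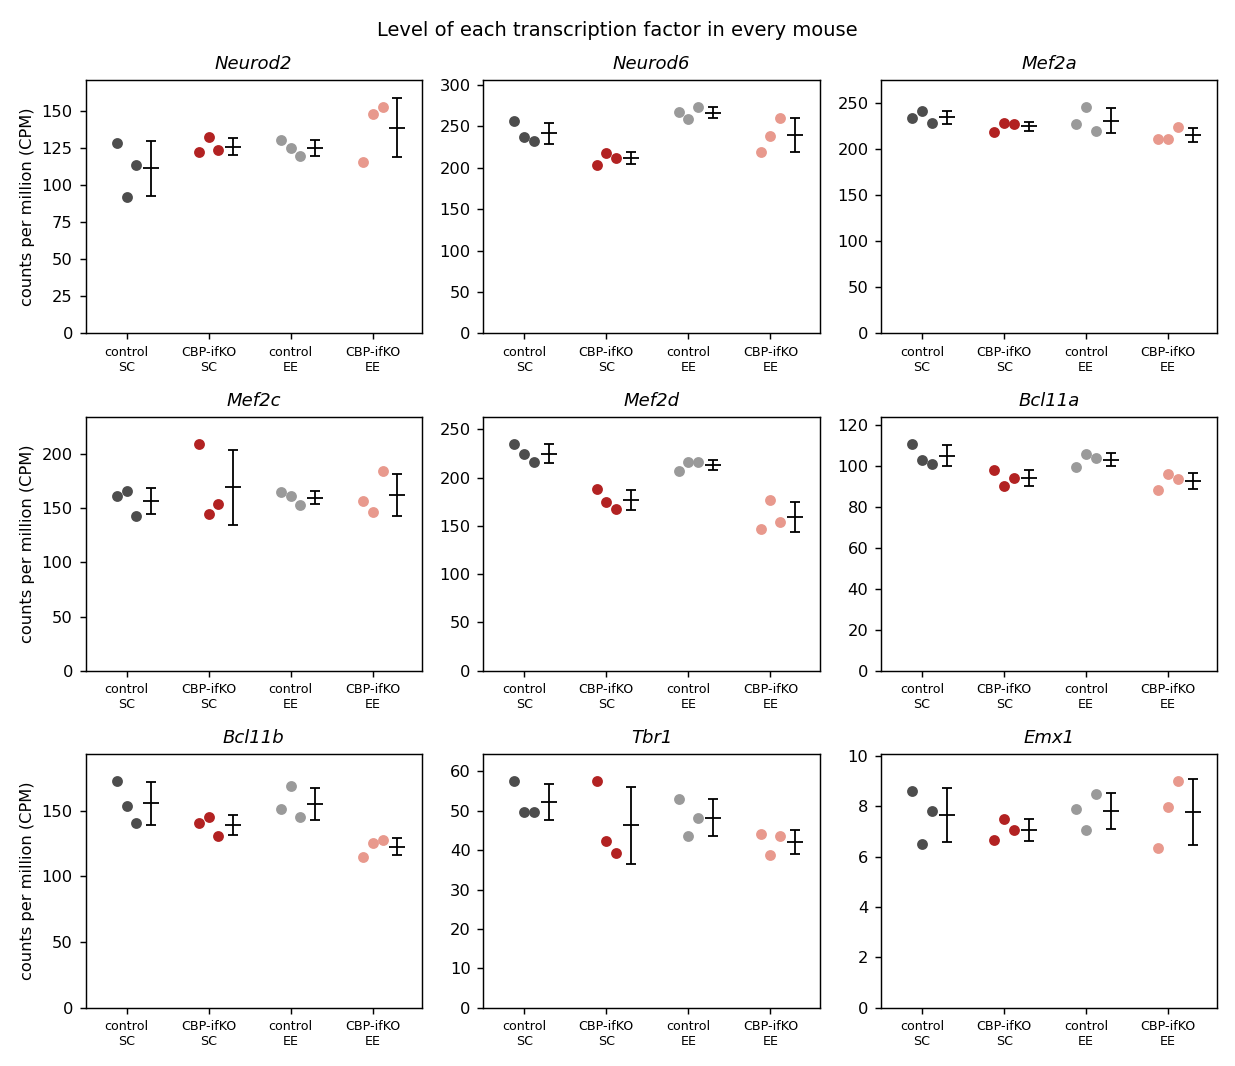
Level of each of the 9 factors in CPM (y axes from 0), with a point for each mouse and the mean ± SD (n = 3) beside it. All 6 CBP-ifKOs lie below all 6 control mice for Mef2d and Bcl11a, while for the other 7 genes the genotypes overlap in at least 1 housing or across housings.

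Counted over the 9 factors, 1 was called in SC, 2 in EE and 4 with housings averaged, all of them lower in CBP-ifKOs. Of all genes tested, 5.52% were called in SC (4.02% lower, 1.51% higher), 4.57% in EE (3.53% lower, 1.03% higher) and 16.9% with housings averaged (10.3% lower, 6.64% higher). The median log2 fold change of the 9 factors was -0.15 averaged, against 0.00 over all 18251 genes. Among the 4981 genes at or above the level of Tbr1, which 8 of the 9 factors reach, 26.7% were called with housings averaged (20.0% lower, median log2 fold change -0.02). For 2 of the 9, Mef2d and Bcl11a, every CBP-ifKO lay below every control mouse, which held for 5.35% of all genes.

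**Figure D3:**
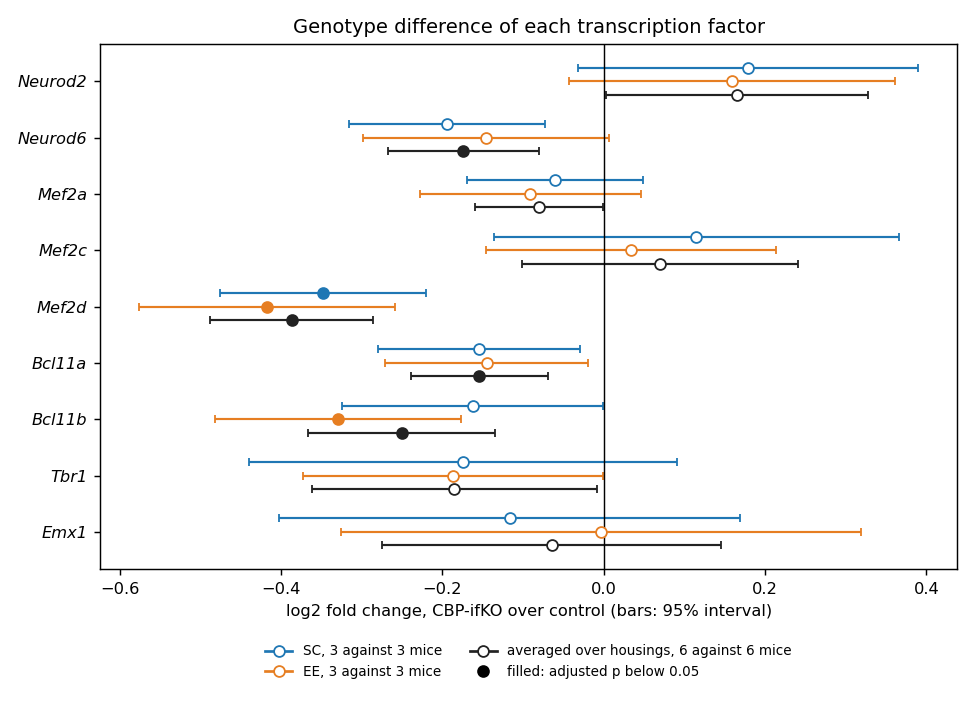
Log2 fold change of each factor between CBP-ifKOs and control mice in SC, in EE and averaged over housings, with 95% intervals; filled points passed the test. Intervals of Mef2d, Bcl11a and Bcl11b lie below 0 in all 3 comparisons, and those of Mef2c and Emx1 span 0 in all 3.

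Housing moved none of the 9 factors past the test. Between EE-housed and SC-housed controls, the log2 fold changes of the 9 lay between -0.12 (Tbr1) and 0.17 (Neurod2), and 0 were called (0% of all genes, with 768 of 18251 genes at an unadjusted p under 0.05 and 15 called by DESeq2). In CBP-ifKOs they lay between -0.18 (Bcl11b) and 0.18 (Neurod6), and again 0 were called (0.011% of all genes, with 1567 genes at an unadjusted p under 0.05 and 50 called by DESeq2). DESeq2 called none of the 9 in either genotype. Neurod6 had a positive estimate in both genotypes, of 0.14 (95% interval 0.0078 to 0.27) in controls and 0.18 (0.048 to 0.31) in CBP-ifKOs, with adjusted p = 0.999 and 0.466. In CBP-ifKOs, Mef2d (-0.16, 95% interval -0.30 to -0.012, adjusted p = 0.538) and Bcl11b (-0.18, -0.34 to -0.016, adjusted p = 0.535) had negative estimates. The intervals of the 9 factors reached from -0.39 to 0.43 at their widest, so smaller housing effects cannot be told from none with these mice.

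The genotype by housing interaction was called for 0 of the 9 factors (0% of all genes, 574 of 18251 at an unadjusted p under 0.05, 0 called by DESeq2), with estimates between -0.18 (Bcl11b) and 0.10 (Emx1). The test of housing and interaction jointly, with a threshold of 0.5 on the log2 fold change in controls, also called 0 of the 9 (0.0329% of all genes, 1254 at an unadjusted p under 0.05 and 8 called by DESeq2). The smallest unadjusted p of the 9 there was that of Neurod6 (adjusted p = 0.543).

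**Figure D4:**
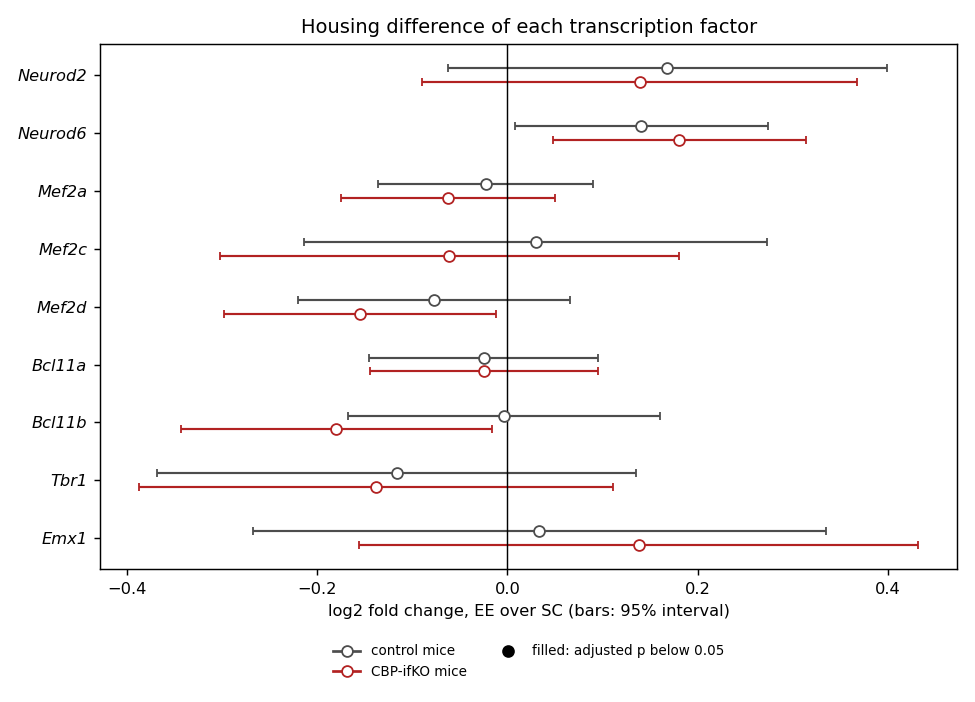
Log2 fold change of each factor between EE-housed and SC-housed mice, in control mice and in CBP-ifKOs, with 95% intervals. No point is filled, as none passed the test, and Neurod6 is the only gene whose intervals lie above 0 in both genotypes.

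Other transcription factors of these neurons were mostly lower where they passed the test. Of 35 further forebrain factors, 34 passed the filter with housings averaged, and of these 17 were lower and 1 was higher in CBP-ifKOs (median log2 fold change -0.18). Of all genes tested, 10.3% were lower and 6.64% higher in this comparison, and of genes at or above the level of Tbr1 20.0% were lower, and the counts of each further list below stand against these shares. The lower ones with the smallest p were Nfib (-0.33 ± 0.05, adjusted p = 0.000304), a nuclear factor I protein of hippocampal development, Lmo4 (-0.28 ± 0.05, adjusted p = 0.000871) and Lmo3 (-0.27 ± 0.05, adjusted p = 0.00103), LIM-only cofactors, and Lhx2 (-0.32 ± 0.05, adjusted p = 0.000943), a LIM homeobox gene needed to form the hippocampus. Bhlhe22, a helix-loop-helix factor related to the NeuroD genes, was the higher one (0.18 ± 0.06, adjusted p = 0.0450), and it did not pass without replicate 1 of the EE-housed controls, when 16 were lower and 0 higher by edgeR. Among uncalled factors of high level, Zeb2 had a log2 fold change of -0.11 (adjusted p = 0.235), Rfx3 of -0.08 (adjusted p = 0.369) and Satb1 of 0.08 (adjusted p = 0.410). In SC alone 8 were lower, and in EE alone 3 were lower (Nfib, Nfix and Lmo4). Of genes at or above the level of Tbr1, 7.98% were lower in SC and 7.29% in EE, and the counts in a single housing of the lists below stand against these. Mef2b, the last of the MEF2 genes, was too low for the filter.

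A list of 9 genes that regulate MEF2 proteins was examined next. With housings averaged, 7 of the 9 were lower and 0 higher (median log2 fold change -0.19), and 2 were lower in each housing alone. Ppp3r1 (-0.31 ± 0.03, adjusted p = 1.68e-05) and Ppp3ca (-0.25 ± 0.04, adjusted p = 0.000636) encode subunits of calcineurin, the phosphatase that activates MEF2 proteins. Hdac5 (-0.24 ± 0.04, adjusted p = 0.00105) encodes a deacetylase that represses them, and Mapk14 (-0.18 ± 0.04, adjusted p = 0.00363) the kinase p38 alpha. Genes of activators and of repressors were thus both among those that fell. The catalytic subunit Ppp3cb (-0.07, adjusted p = 0.196) and the kinase gene Mapk7 (-0.10, adjusted p = 0.271) did not pass. Without replicate 1 of the EE-housed controls, 5 of the 9 were lower.

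Of 7 E proteins and Id inhibitors, which set how much NeuroD protein can bind DNA, 2 were lower with housings averaged, against 20.0% of genes at or above the level of Tbr1. They were Tcf4, an E protein (-0.19 ± 0.05, adjusted p = 0.00922), and Id2, an inhibitor of E proteins (-0.24 ± 0.06, adjusted p = 0.0152). Their median log2 fold change was -0.003, with Id4 (0.004, adjusted p = 0.968), Tcf12 (-0.003, adjusted p = 0.977) and Tcf3 (-0.05, adjusted p = 0.561) not passing. In SC, 1 was lower (Id2) by edgeR and 2 by DESeq2, and in EE 0 were called by edgeR and 1 by DESeq2.

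Of 12 genes described as neuronal targets of these factors, 5 were lower and 1 was higher with housings averaged (median log2 fold change -0.10). Like the other lists, this one was chosen with earlier results of these data known. The paper had already reported Bdnf and C1ql2 as reduced, from screens that included the SC-housed mice used here. The count is therefore a description and no test of the targets. C1ql2, a secreted synaptic organizer of mossy fiber terminals described as a target of Bcl11b, fell from 66.4 ± 7.41 to 21.9 ± 3.93 CPM (SD, n = 3) in SC and from 64.0 ± 11.1 to 16.9 ± 1.90 CPM in EE. Its averaged log2 fold change was -1.76 ± 0.10 (adjusted p = 4.36e-08). The neurotrophin gene Bdnf (-0.68 ± 0.07, adjusted p = 1.89e-05), the AP-1 gene Jun (-0.34 ± 0.06, adjusted p = 0.000639) and the desmosomal gene Dsp (-0.34 ± 0.08, adjusted p = 0.00761) were also lower. So was Grin2b, an NMDA receptor subunit gene (-0.31 ± 0.07, adjusted p = 0.00989), while Stim1, a calcium sensor of the endoplasmic reticulum, was higher (0.12 ± 0.04, adjusted p = 0.0351). Arc, an immediate early gene and MEF2 target, had a log2 fold change of 0.28 ± 0.27 (adjusted p = 0.543), Homer1 of -0.14 ± 0.05 (adjusted p = 0.0525) and Pcdh10 of -0.03 ± 0.04 (adjusted p = 0.737). In SC alone 3 of the 12 were lower, and in EE alone 4.

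**Figure D5:**
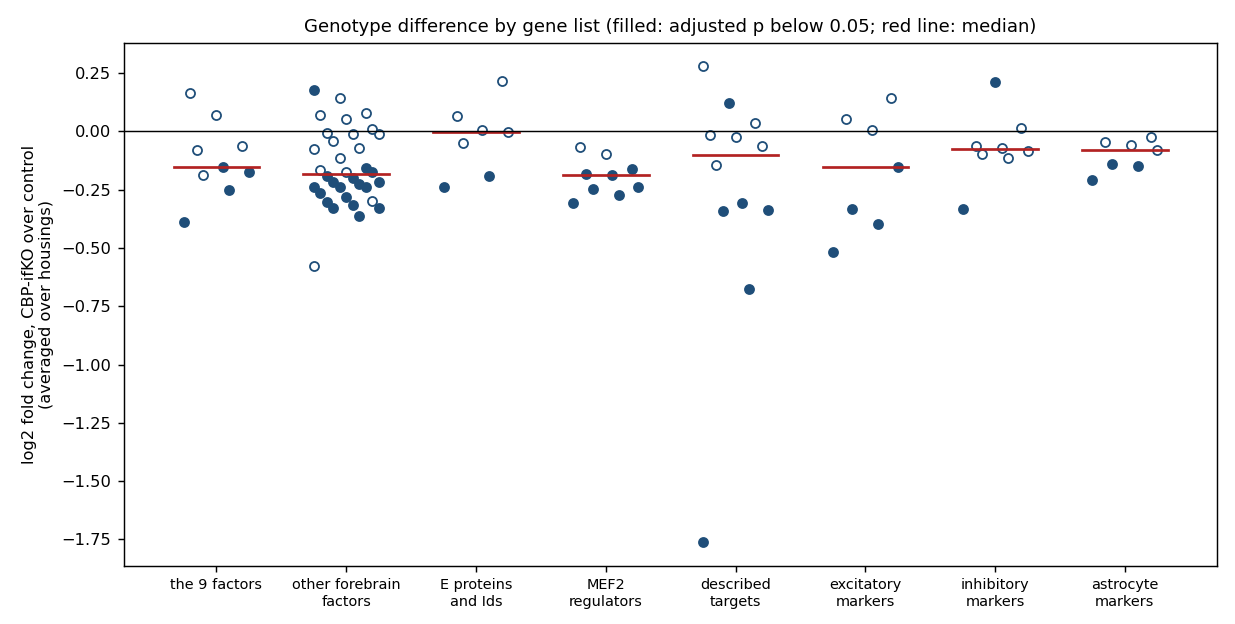
Log2 fold change between CBP-ifKOs and control mice, averaged over housings, for the 9 factors, the 4 related lists and 3 lists of cell type markers. Each point is a gene, filled where it passed the test, and red lines mark medians, which lie at -0.15 for the 9 factors and -0.18 for the other forebrain factors. C1ql2 is the lowest point, at -1.76.

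Markers of the cells themselves give the setting for these values. Of 7 excitatory neuron markers (some of which are also among the 35 further factors), 4 were lower with housings averaged, namely Nrgn (-0.52 ± 0.05, adjusted p = 7.52e-06), Rbfox3 (-0.40 ± 0.05, adjusted p = 6.81e-05), Grin2a (-0.33 ± 0.04, adjusted p = 9.87e-05) and Camk2b (-0.15 ± 0.04, adjusted p = 0.00687). Nrgn encodes a calmodulin-binding protein of dendrites, Rbfox3 the splicing factor NeuN and Grin2a an NMDA receptor subunit. Slc17a7 (0.01 ± 0.04, adjusted p = 0.941) and Neurod1 (0.05, adjusted p = 0.630) did not pass. The summed level of the 7 markers was 3883 to 4556 CPM in control mice and 3521 to 3866 CPM in CBP-ifKOs. That of 7 astrocyte markers was 4948 to 5579 CPM in control mice and 4464 to 4942 CPM in CBP-ifKOs, with 3 of 7 lower (1 of 7 without replicate 1 of the EE-housed controls), and astrocytes keep Crebbp. Those of 8 inhibitory neuron markers (907 to 1000.4 and 847 to 909 CPM), 8 oligodendrocyte markers (3666 to 5150 and 3863 to 4800.1 CPM), 7 microglia markers (309 to 345 and 293 to 324 CPM) and 6 endothelial markers (206 to 231 and 190 to 221 CPM) overlapped between genotypes over all mice. Within housings, however, the CBP-ifKO sums lay below those of the controls without overlap in both SC and EE for excitatory, inhibitory, astrocyte and microglia markers, and in SC for endothelial markers. Of these lists, 1 inhibitory marker was lower (Sst) and 1 higher (Vip), and 2 oligodendrocyte, 2 microglia and 1 endothelial markers were lower with housings averaged (1 microglia marker without replicate 1 of the EE-housed controls). The part of cell composition in the differences of the 9 factors was not tested.

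Markers of neighboring tissue bear on the dissection. Those of cortex and subiculum, where Tbr1 is strong, summed to 363 to 412 CPM in control mice and 359 to 392 CPM in CBP-ifKOs, with 2 of 9 lower. Thalamus markers summed to 128 to 151 and 115 to 131 CPM, with Gbx2 at 0 in some library, 3 of 6 tested lower and 1 higher, and striatum markers to 99.0 to 110 and 93.8 to 105 CPM, with Isl1 at 0 in some library and 1 of 6 tested lower. Both of these sums were lower in CBP-ifKOs without overlap within each housing. The choroid plexus marker Ttr stood at 1129 CPM in replicate 1 of the EE-housed controls and at 4.06 to 32.3 CPM in the other 11 mice. In SC it was lower in CBP-ifKOs (6.02 to 7.73 CPM, against 20.7 to 26.1 CPM in controls, log2 fold change -1.70 ± 0.12, adjusted p = 2.20e-05). With housings averaged it was the 1 lower gene of the 6 choroid plexus markers, a call lost without that mouse and with DESeq2. The sum of these markers was 35.6 to 1256 CPM in control mice and 35.9 to 63.0 CPM in CBP-ifKOs. Without that mouse, the same number of the 9 factors was called in EE (2) and with housings averaged (4).

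Across the 12 mice, with group means kept, Mef2d and Bcl11a varied together most closely of all pairs of the 9 (Pearson r = 0.925). Their r was 0.765 with group means removed. Bcl11b went with both, with r = 0.866 to Mef2d and 0.840 to Bcl11a, which dropped to 0.515 and 0.613 with group means removed. With group means removed, Neurod6 with Emx1 (r = 0.875) and Neurod2 with Emx1 (r = 0.854) were closer than Mef2d with Bcl11a. Mef2c with Tbr1 (r = 0.755) came next after that pair. Of all genes past the filter, the most like Mef2d was Cdhr1 (r = 0.985), the most like Bcl11a was Smap2 (r = 0.960), the most like Neurod6 was Rasd1 (r = 0.971) and the most like Bcl11b was Atxn1 (r = 0.945). With group means removed other genes took these places, namely Crtc1 for Mef2d (r = 0.979), Vmn1r4 for Bcl11a (r = 0.977), Zfp277 for Neurod6 (r = 0.954) and Gm44950 for Bcl11b (r = 0.959). These correlations describe log2 CPM over 12 mice that share genotype, housing and library depth as sources of variation. Each partner was picked as the highest r among all genes past the filter, a choice that by itself favors high values. Whether any partner varies with its factor beyond that was not tested.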

How the data were processed

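Hippocampal RNA of 12 mice was measured by 50 base single-end RNA-seq, with 2 runs per mouse. The authors deposited gene-level raw counts, made with trim_galore 0.6.4 and STAR 2.6.1 (versions from the submitters' processing notes), a mapping quality filter of 10 and exon counting by Rsubread with an Ensembl GRCm38 annotation, with the runs merged. Groups follow the sample labels. Tests used edgeR 4.0.16 under R 4.3.3 (filterByExpr, TMM, quasi-likelihood F test, Benjamini-Hochberg threshold of 0.05 over all genes tested). The genotype tests within a housing took 6 mice each (17532 genes in SC, 17625 in EE), and all other comparisons used 12 mice (18251 genes). Symbols were matched for 55144 of 55471 genes. Depth enters the precision through the counts. Intervals are at 95%. The replicate numbers name mice and were not used to pair them. The procedure was tested on simulated data. All 9 factors are named, and of each further list up to 4 called genes of smallest p and up to 3 uncalled genes of highest level, with Bhlhe22, Grin2b, Stim1, Sst, Vip and Ttr named besides after their values were seen. The 9 factors and the lists were chosen with earlier results of these data known. Alternatives were DESeq2 1.42.0, its size factors, other filters, a replicate block, halved CBP-ifKO counts, other sets of mice and leaving out each mouse. Promoters are from RefSeq. Values of 1 marker gene are not reported here.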

Additional observations from a re-analysis of the deposited data

How the results depend on the processing

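The number of the 9 factors called with housings averaged was 4 under every alternative that kept all 12 mice except dropping the filter on low counts (6) and the replicate block (5), and 4 to 5 without each mouse in turn. In SC, 2 were called with DESeq2, 2 without a filter on low counts and 1 to 2 without each mouse. In EE, 0 to 2 were called without each mouse, the 0 without replicate 3 of the CBP-ifKOs. For housing, the interaction and the joint test, 0 of the 9 were called under every alternative run. Of 111 alternative values for called factors none changed sign, and of 789 for uncalled ones 41 did, none of them called. Replicate numbers were not taken to pair the mice, since not every same-numbered pair correlated above 0.1. Between SC and EE the values were 0.214, 0.414 and 0.0584 in controls and -0.0764, 0.112 and -0.0984 in CBP-ifKOs, and between genotypes 0.128, -0.108 and 0.170 in SC and 0.145, 0.161 and 0.0532 in EE. Under the replicate block, Tbr1 was added to the averaged calls (-0.19, adjusted p = 0.0309), and the number of the 9 called in the other comparisons did not move. Over all genes the block called 1041 in SC, 1089 in EE, 3374 averaged and 17 for housing in CBP-ifKOs (2 without it). Over all genes, dropping the filter on low counts called 1512 genes in SC (against 968), 1677 in EE (against 805), 145 and 247 for housing, 110 for the interaction and 114 jointly. DESeq2 called 1296 in EE, and a fit of all 12 mice 1293. Leaving out mice gave 399 to 1908 genes in SC and 285 to 1016 in EE. With DESeq2, MEF2 regulators called lower were 4 in SC and 4 in EE, and further forebrain factors called lower in EE were 5. Emx1 has the fewest counts and the widest averaged interval of the 9.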
